A study of Mus musculus with 47 samples.

Results

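The genes described here carry out or control DNA replication and S phase. They were taken from a list of 38 genes by symbol, and 30 of them were among the 13947 genes with allelic counts. The 6 subunits of the MCM helicase (Mcm2 to Mcm7), geminin (Gmnn) and claspin (Clspn) were not analysed here. Measurements came from 47 single mouse induced pluripotent stem cells (iPSCs) of 1 plate. The iPSCs derive from female embryonic fibroblasts of a cross between the Mus and Cast strains of mice, whose SNPs tell the 2 alleles of a gene apart, reprogrammed with lentiviral OSKM factors (Oct4, Sox2, Klf4 and c-Myc, induced by doxycycline) and kept in mouse ESC medium with LIF. Sorted cells were first incubated with a GpC methylase and their polyadenylated RNA was then captured on oligo-dT beads. Each cell carries a class given by the authors, who judged X loss from the allelic expression of X-linked genes. By that reading 23 X-Mus X-Cast cells keep both X chromosomes. Another 15 X-Cast O-Mus cells have lost the Mus X and 9 X-Mus O-Cast cells have lost the Cast X. All 47 carry the same label otherwise and no culture or colony was given per cell, so they stand as 1 sample, and the comparisons below are descriptions without a test.

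Levels are given as counts of both alleles of a gene per 10000 allelic counts of the cell. Such a level depends on how many strain SNPs a transcript holds, so it is compared between cells for the same gene and never between genes. The cells held 71682 to 216451 allelic counts (median 167041), and the summed level of the 30 genes had a Spearman correlation of 0.0035 with that total over the 47 cells and of -0.262 (Pearson -0.259) with the number of genes detected, whose part in the results below was not tested. The cell with the fewest counts was an X-Mus O-Cast cell. All 14 measured markers of pluripotent cells had counts, 4 of them in every cell, and their summed level ran from 44.2 to 128.8 per 10000. Of 9 measured fibroblast markers, 6 had no count in any cell, and the summed level of the list was at most 1.92 and had a median of 0.

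DNA replication follows a fixed order of steps. Origins are licensed when Cdc6 and its partners load the MCM helicase in G1, cyclin E with its kinase Cdk2 drives cells into S phase, and the helicase then fires with Cdc45 and the GINS complex. Primase, the sliding clamp Pcna, its loader and the polymerases copy the strands, ribonucleotide reductase and thymidylate synthase supply nucleotides, and chaperones such as Nasp and Caf-1 package the new DNA. Many of these genes are transcribed under E2F factors around the G1/S transition. Pluripotent mouse cells are known for a short G1 and for spending much of their cycle in S phase.

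E2F factors bind short promoter motifs, so the promoters of genes that could be placed by symbol in RefSeq (GRCm38.p6) were searched for TTTCCCGC, TTTCGCGC, TTTGCCGC and TTTGGCGC on both strands over the 250 bases before the annotated start. These 4 motifs share no overlapping match among the genes described. A window was at hand for 24 of the 30 genes, and 5 of them (20.8%) held a motif: Cdc6, Dtl, Cdca7, Casp8ap2 and Hells. Of all 27025 genes with such a window 583 (2.16%) held one, and of all 32851 windows 611 (1.86%). The stretches outside annotated exons are printed for 3 of these genes, with the motif in capitals, and for Ccne1, the gene that later proves to follow the others most, which held no match in its window. The Dtl stretch is chr1:191575545-191575635 on the minus strand, the Cdca7 stretch chr2:72475969-72476158 on the plus strand, the Casp8ap2 stretch chr4:32615220-32615450 on the plus strand and the Ccne1 stretch chr7:38107535-38107740 on the minus strand.
Dtl: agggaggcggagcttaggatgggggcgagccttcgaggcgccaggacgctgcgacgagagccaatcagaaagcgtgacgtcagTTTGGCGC
Cdca7: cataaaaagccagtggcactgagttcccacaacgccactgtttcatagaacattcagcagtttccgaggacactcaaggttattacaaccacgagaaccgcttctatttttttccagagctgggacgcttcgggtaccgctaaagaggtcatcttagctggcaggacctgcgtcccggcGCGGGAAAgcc
Casp8ap2: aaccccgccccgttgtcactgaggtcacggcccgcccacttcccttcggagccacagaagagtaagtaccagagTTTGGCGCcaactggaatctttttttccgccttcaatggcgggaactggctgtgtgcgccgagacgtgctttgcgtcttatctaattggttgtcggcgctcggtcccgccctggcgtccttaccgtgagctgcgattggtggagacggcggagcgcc
Ccne1: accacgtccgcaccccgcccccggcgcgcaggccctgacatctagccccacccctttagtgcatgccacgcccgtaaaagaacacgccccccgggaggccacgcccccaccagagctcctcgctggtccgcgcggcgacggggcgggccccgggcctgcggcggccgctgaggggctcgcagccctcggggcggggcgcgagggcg

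The match in Dtl ends at the last base before the start, and the capitals in Cdca7 are the motif read on the other strand. A match is a run of letters and not a measured binding site. The 5 genes with a match had a median correlation of 0.236 (-0.104 to 0.305) with the other S-phase genes over the cells. It was 0.282 (-0.177 to 0.587) for the 15 genes without one. The ranges overlap, and a link of motif and co-variation was not tested. With the first T left off, a motif was found in 12 of the 24 genes (50%) and in 9.01% of all genes. Genes without a match can thus hold the shorter form.

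Every cell had counts of at least 20 of the 30 genes, and 1 cell had counts of all 30. The filter on low values (5 counts per cell on average, and any count in 24 cells or more) was passed by 25 of them and by 3841 genes in all. The other 5 were seen thinly: Brip1, a helicase partner of Brca1, had counts in 17 cells, Cdc45 in 18, Rad51ap1 in 21, Ccne2 (cyclin E2) in 8 and Wdr76 in 28. Their median level was 0 except for Wdr76, at 0.164. They enter the summed level and are otherwise left out of the counts below.

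Among the genes that license and fire origins, Gins2, a GINS subunit, ran from 0 to 9.35 with a median of 2.54 per 10000. Dtl, the substrate receptor that marks the licensing factor Cdt1 for destruction in S phase, ran from 0 to 5.86 (median 2.11). Cdc6 ran from 0 to 6.63 (median 1.48) and had no count in 7 of the 47 cells. Each of these genes was thus at or near 0 in some cells and at several times its median in others. Gins2 shares exonic bases with Gse1 on the opposite strand, and whether the counting used strand was not given in the sources used here, so part of its counts could belong to Gse1.

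The genes of the replication fork included the steadiest of all. Pcna, the clamp that tethers polymerases to DNA, was counted in every cell and ran from 2.04 to 10.3 (median 4.80). Tipin, the fork protection partner of Timeless, was likewise present throughout, from 1.73 to 16.4 (median 8.45). The coefficient of variation (CV, the SD over cells as a share of the mean) was 40.95% for Pcna and 34.04% for Tipin. Rfc2, a clamp loader subunit, ran from 0 to 10.3 (median 3.52). Fen1, the flap endonuclease of Okazaki fragments, ran from 0 to 3.41 (median 1.31). Both overlap exons of other genes on the opposite strand, Lat2 for Rfc2 and Tmem258 and Gm10143 for Fen1. Pold3, an accessory subunit of polymerase delta, ran from 0 to 4.73 (median 0.588), and Prim1, the catalytic subunit of primase, from 0 to 1.68 (median 0.544). Pold3 was uneven, with a CV of 107% and 10.2% of its counts in 1 cell.

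Nucleotide supply was represented by 3 genes. Tyms, thymidylate synthase, ran from 0 to 5.57 (median 1.79). Rrm2, the small subunit of ribonucleotide reductase whose abundance follows S phase, ran from 0 to 3.70 (median 1.61), and Rrm1, the large subunit, from 0 to 2.62 (median 0.899). The summed level of the 3 genes had a correlation of 0.232 with the other S-phase genes, the lowest of the 6 role groups that could be measured.

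Genes that control the G1/S transition varied by different amounts. Ccne1 (cyclin E1, chr7:38097984-38107534, minus strand) had counts in every cell and ran from 0.929 to 17.4 with a median of 4.07. The highest cell was an X-Cast O-Mus cell. E2f8, an atypical E2F that represses S-phase genes late in S phase, ran from 0 to 4.11 (median 0.391), and 14 cells had no count. Cdca7, a target of Myc and E2F and cofactor of Hells, ran from 0 to 5.40 (median 1.33). E2f8 had the highest CV of the 25 genes, 127%, on a mean of 11.6 counts per cell.

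Among genes of histone supply and chromatin assembly, Nasp, a histone chaperone, ran from 1.33 to 8.08 (median 4.34). Chaf1b, a subunit of Caf-1, ran from 0 to 15.0 (median 3.33). Slbp, which binds the stem-loop of histone mRNA, ran from 0.279 to 6.96 (median 1.82). Nasp was even between cells, with a CV of 37.2%, and Chaf1b was not, with 85.4%. Hells, a chromatin remodeller, ran from 0.247 to 3.76 (median 1.49), Casp8ap2 (FLASH, needed for histone mRNA processing) from 0 to 3.26 (median 0.414) and Ubr7 from 0 to 3.69 (median 0.912). E2f8, Slbp and Ubr7 each share exonic bases with a predicted gene on the opposite strand.

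Repair genes completed the set. Ung, which removes uracil from DNA, ran from 0 to 13.4 (median 2.57). Exo1, an exonuclease of mismatch repair, ran from 0 to 4.36 (median 1.22), Blm, a RecQ helicase, from 0 to 4.45 (median 0.754) and Usp1, which removes ubiquitin from Pcna, from 0 to 0.912 (median 0.289). Usp1 passed the filter with the fewest counts, 5.34 per cell.

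**Figure D1:**
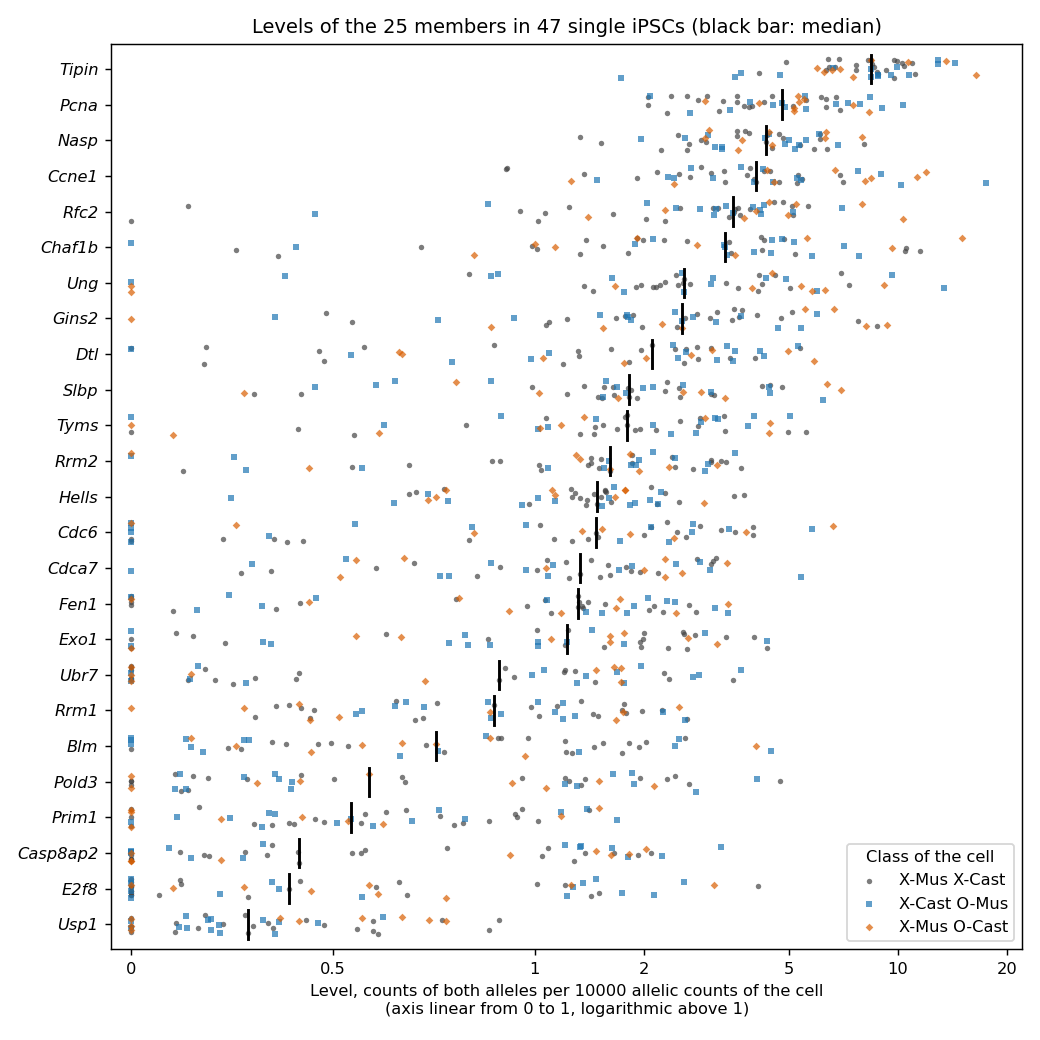
Level of each of the 25 genes (rows, ordered by median) in each of 47 cells (points, coloured and shaped by class), in counts of both alleles per 10000 allelic counts of the cell, on an axis that is linear up to 1 and logarithmic above. Tipin, Pcna, Nasp, Ccne1, Slbp and Hells had counts in every cell, Ccne1 spread from 0.929 to 17.4, and the points of the 3 classes overlap in every row.

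Spread between cells was set against genes of like abundance, through the running median of the CV along all genes ordered by mean level. The CV exceeded that median for 15 of the 25 genes (60%), and for 49.8% of all 3841 genes. Chaf1b stood furthest above, at 1.72 times the running median, followed by Ccne1 and Ung, each at 1.48 times, and Gins2, at 1.34 times. Usp1, Hells and Prim1 were the most even for their abundance, at 0.646, 0.654 and 0.681 times.

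The summed level of the 30 genes ran from 37.3 to 111 per 10000 with a median of 56.9, a ratio of 2.97 between the highest and the lowest cell. Its CV was 25.6%, and the lowest of the 25 genes was the 34.04% of Tipin. Adding genes that follow each other weakly evens out their spread, so the lower value is no trait of this set. Tipin gave 14.2% of the summed level, Pcna 8.24% and Ccne1 8.09%, shares that also depend on the SNPs each gene holds. The highest cell was an X-Mus O-Cast cell (well C01), with 17 of the 25 genes above their median over cells, and the next was an X-Cast O-Mus cell (D06) at 97.6, with 19 of 25. In C01 the level of Chaf1b was 15.0, of Rfc2 10.3 and of Tipin 16.4, each the highest of all cells, while Cdc6 was at 0.260 and Ubr7 at 0. In well D06 Ccne1 was at 17.4 and Ung at 9.65. The lowest cell, an X-Mus X-Cast cell (F04) at 37.3, had 8 of 25 genes above their median and Ccne1 at 0.929, its lowest value in any cell.

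The genes followed each other weakly. Over the 300 pairs of the 25 genes the median Spearman correlation over 47 cells was 0.067, and 7% of pairs reached 0.3, against a median of 0.012 and 2.94% over all pairs of the 3841 genes. On deviations from the median of the plate column the median over the 300 pairs was 0.031, and without the 2 cells farthest from the median summed level it was 0.042. The 3 closest pairs all held Ccne1: with Slbp 0.526, with E2f8 0.516 and with Pcna 0.511. Rrm2 and Ubr7 came next, at 0.427. The lowest pairs were Cdc6 with Gins2, at -0.390, and Gins2 with Prim1, at -0.372.

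Each gene was also compared with the sum of the others, a sum it is no part of. A correlation of at least 0.3 was found for 8 of the 25 genes (32%), where 2.34% of all genes and 2.15% of genes outside the list reached 0.3 with the summed level. These were Ccne1 at 0.587, Slbp at 0.495, E2f8 at 0.473, Ung at 0.459, Pcna at 0.429, Tipin at 0.346, Rrm2 at 0.314 and Dtl at 0.305. Fen1, Chaf1b and Hells lay just below, at 0.285, 0.282 and 0.275. In all 19 of 25 genes (76%) were above 0, against 47.2% of all genes. Tyms, Pold3, Cdca7, Usp1, Prim1 and Blm were at or below -0.019, and the lowest, Blm, was at -0.177. No gene of the list reached -0.3, which 3.46% of all genes did. The plate position moved with this measure: the median summed level was 68.8 in plate column 1 and 68.4 in column 6, and 46.6 to 57.4 in the others, and with levels taken as deviations from the median of the plate column 5 of the 25 genes reached 0.3, against 2.33% of genes outside the list. The part of plate position in the result was not tested.

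Grouped by role, the genes of G1/S control, of the fork, of chromatin and of origins had correlations of 0.559, 0.569, 0.568 and 0.456 with the sum of the genes outside the group. Nucleotide supply (0.232) and repair (0.277) were lower. The closest pair of groups was the fork with G1/S control, at 0.542, and the least close was origins with nucleotide supply, at -0.054.

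Other genes of replication were taken from a list of 51, of which 40 passed the filter. Against the summed level their median correlation was 0.111, with 32 of 40 above 0 and 3 at 0.3 or more, where the median of all genes was -0.0097. The closest were Orc6, an origin recognition subunit, at 0.454, Uhrf1, which brings Dnmt1 to replicated DNA, at 0.412, Rfc4, a clamp loader subunit, at 0.403, and Dut, which clears dUTP, at 0.298. The least close were Pold1, the catalytic subunit of polymerase delta, at -0.133, Ccna2, cyclin A2, at -0.126, and Orc4 at -0.108. Among all genes outside the list, the 10 closest were Otud6b (0.555), Sephs1 (0.523), Fam111a (0.484), Anp32b (0.465), Ctsz (0.461), Synj2bp (0.459), Orc6 (0.454), Tuba4a (0.450), Slc25a38 (0.424) and Fkbp3 (0.420). Ccne1 was closer than any of them, and Slbp ranked 4 and E2f8 6 among the 3841 genes.

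**Figure D2:**
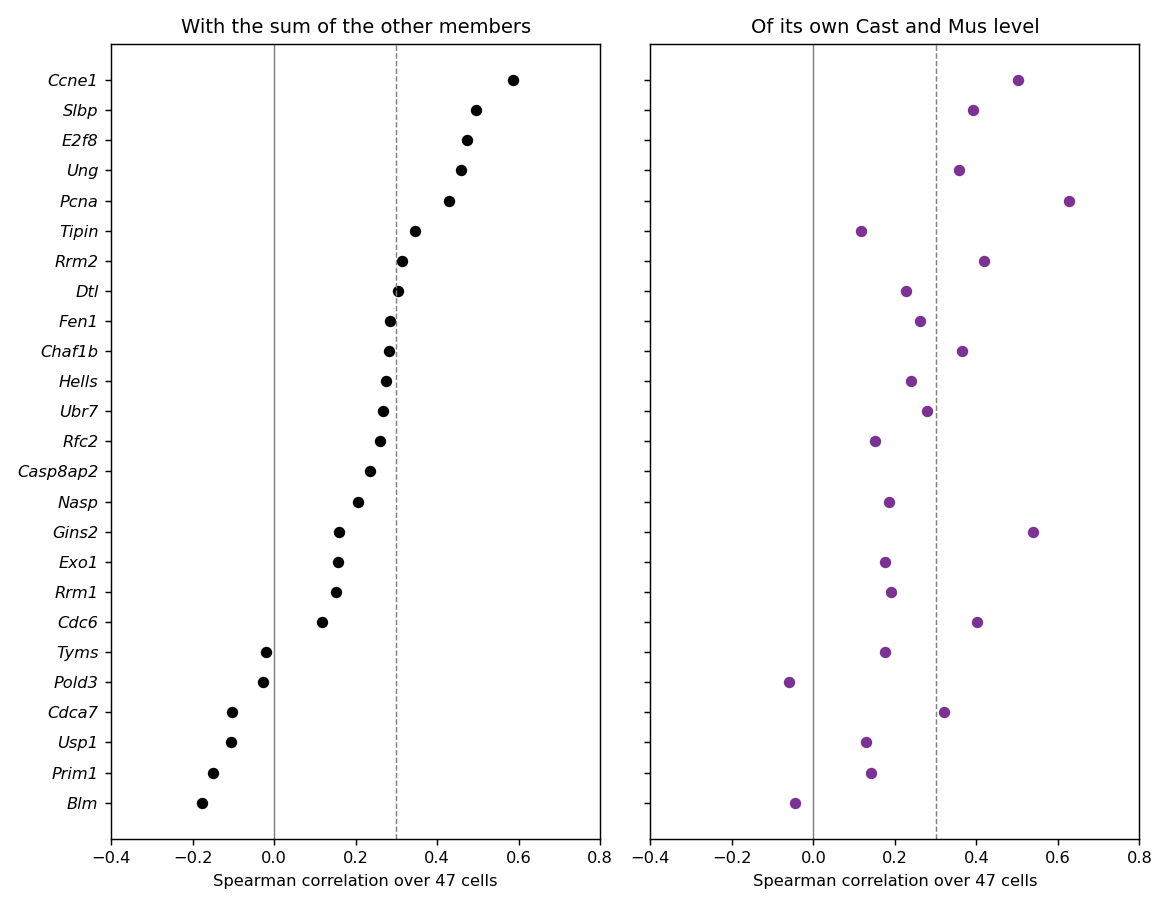
Spearman correlation over 47 cells of each gene with the sum of the other S-phase genes (left) and of its own Cast level with its own Mus level (right), with a solid line at 0 and a dashed line at 0.3. Ccne1 was highest on the left (0.587) and Pcna on the right (0.627). E2f8 and Casp8ap2 have no point on the right, since both alleles of E2f8 and the Mus allele of Casp8ap2 had counts in fewer than 24 cells.

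Genes of G2 and mitosis were compared as a set that acts later in the cycle. Of 56 listed, 42 passed the filter, and the sum of the 51 in the table ran from 72.7 to 220 per 10000 with a median of 116. It had a Spearman correlation of -0.379 (Pearson -0.373) with the summed level of the S-phase genes over 47 cells. The value was -0.435 within the 23 X-Mus X-Cast cells, -0.343 within the 15 X-Cast O-Mus cells and -0.533 within the 9 X-Mus O-Cast cells, and -0.382 without the 2 cells farthest from the median. For the sum of the other replication genes the correlation with the G2 and mitosis sum was -0.070 over the 47 cells, and by class 0.091, -0.414 and -0.283 in the same order. Of the 42 genes 13 were at -0.3 or below, against 3.46% of all genes, 7 were above 0 and 0 were at 0.3 or above. Cenpf, a kinetochore protein, was lowest at -0.506, then Top2a, the topoisomerase that untangles sister chromatids, at -0.455 and the spindle checkpoint kinase Ttk at -0.437. The 5 cells with the highest summed level of S-phase genes had G2 and mitosis sums between 93.8 and 116, and 4 of the 5 cells with the lowest had sums between 145 and 220. The fifth of these, an X-Cast O-Mus cell (A03), was low in both, at 43.9 and 78.0. All values are shares of the same total, so a gain of one set of genes in a cell takes from every other. The summed level of pluripotency markers had a correlation of -0.035 with that of the S-phase genes.

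Whether both alleles of these genes are high in the same cells was asked first of the summed levels. The Cast alleles summed to 19.4 to 58.4 per 10000 (median 30.7) and the Mus alleles to 16.8 to 52.3 (median 26.1). Over the 47 cells the correlation of these sums was 0.682 (Pearson 0.756), and it was 0.773 in X-Mus X-Cast, 0.521 in X-Cast O-Mus and 0.717 in X-Mus O-Cast cells. Without the 2 cells farthest from the median it was 0.639, and on deviations from the plate column median 0.697. The cell with the highest sum of both alleles, C01, had 58.4 from Cast and 52.3 from Mus alleles. The lowest, F04, had 20.2 and 17.1. Both cells were picked by that sum, so they are no separate sign that the alleles go together.

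Gene by gene the link was looser. For the 23 genes with counts of each allele in at least 24 cells, the median correlation of the Cast with the Mus level was 0.239, and 21 were above 0 (91.3%, against 87.4% of all genes). It reached 0.3 for 9 of 23 (39.1%), near the 31.4% of all 2438 genes measured in this way, whose median was 0.209. The Cast level of a gene and the Mus level of another of the 23 had a median correlation of 0.036, against 0.013 over all genes. Pcna was highest at 0.627, with Cast levels of 1.30 to 7.25 (median 3.33) and Mus levels of 0.228 to 4.01 (median 1.36). Gins2 followed at 0.538 and Ccne1 at 0.501, and then Rrm2 at 0.417, Cdc6 at 0.402, Slbp at 0.392, Chaf1b at 0.365, Ung at 0.356 and Cdca7 at 0.321. Pold3 (-0.060) and Blm (-0.046) were the ones below 0. The 9 genes that reached 0.3 averaged 27.2 counts per cell or more, and the 9 genes that averaged 25.0 or fewer all lay below 0.3, so depth moved with this measure, and its part was not tested. Tipin, the most counted gene, was at 0.117.

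**Figure D3:**
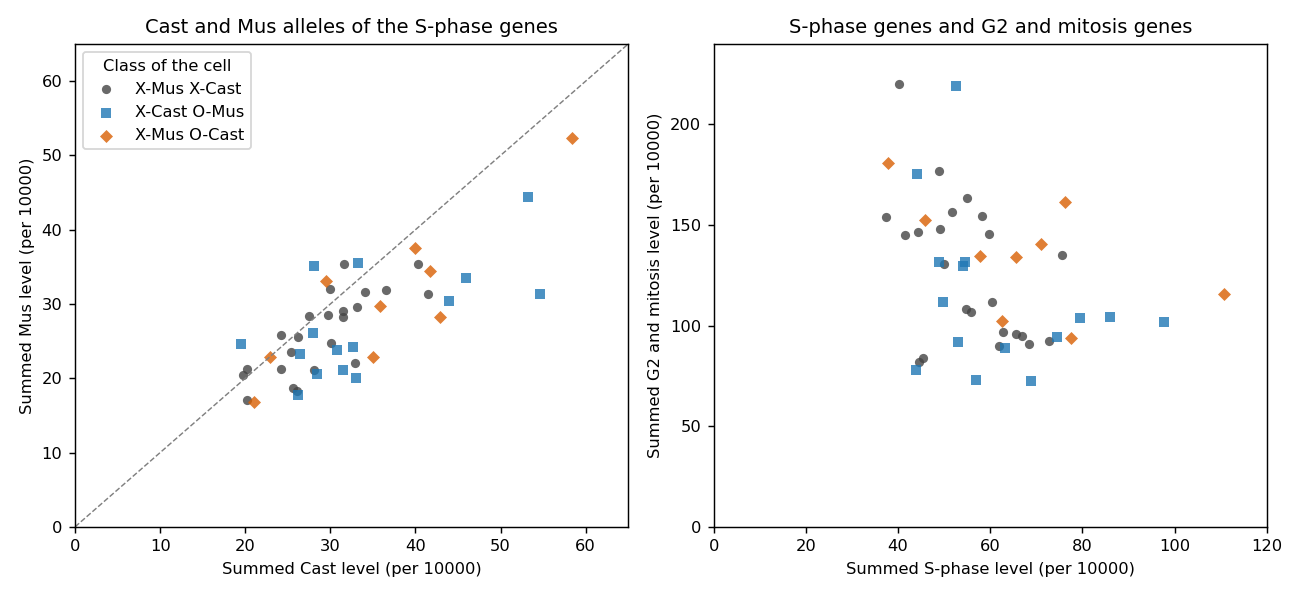
Left, summed Mus level against summed Cast level of the S-phase genes in each of 47 cells, per 10000 allelic counts, with the line of equal levels dashed. Right, summed level of G2 and mitosis genes against that of S-phase genes. Points are cells, coloured by class. The alleles went up together (Spearman 0.682) and the 2 gene sets went in opposite directions (-0.379).

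The pooled counts of the 30 genes gave a Mus share of 46.03% (exact 95% interval 45.6 to 46.5%, counting error only). Reads of these libraries carry no molecular identifiers and a read over several SNPs may be counted at each, so such intervals are too narrow for molecules. Over the 25 genes the median share was 52.1%, and 12 were below 50% (48%), where 62.3% of 3729 autosomal genes were. With the counts of all cells pooled, Ccne1 was the only one of the 25 outside 25 to 75% (4%), a range that 17.7% of autosomal genes left. Its share was 14.4% (13.3 to 15.6%), and Cast levels ran from 0.557 to 15.1 while Mus levels ran from 0 to 2.70. By class the share was 13.5% where both X chromosomes were kept, 14.7% where the Mus X and 15.3% where the Cast X was lost. The cyclin E1 allele that is low in these cells still went with the other, as the correlation of 0.501 above shows. Among the genes below the filter, Wdr76 had a share of 6.01% (3.04 to 10.5%) on a mean of 3.89 counts per cell, and Ccne2 one of 23.9% (12.6 to 38.8%).

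Exo1 (27.98%) and Dtl (30.2%) were the next lowest, and both lie on chromosome 1, whose pooled counts were 31.8% Mus, the lowest of the 19 autosomes. Pcna (31.1%), Blm (31.5%) and E2f8 (32.2%) lie on chromosomes 2 and 7, with pooled shares of 45.3% and 44.5%. At the other end were Fen1, at 70.9%, and Rfc2, at 66.6%, both with exonic overlaps as given above. Tipin (49.5%), Hells (50.0%) and Nasp (49.1%) were close to even. Blm differed by class: Mus made up 52.7% of its counts in X-Cast O-Mus cells, 21.6% in X-Mus X-Cast and 18.5% in X-Mus O-Cast cells, with 34.6% of the X-Cast O-Mus counts from 1 cell. That cell (B04) also had the lowest Mus share on chromosome 12, 7.18% where the next cell had 30.0%. Ubr7, on that chromosome, had 28 Cast and 0 Mus counts in it, and Rrm2 had no count. Of 888 values with at least 10 counts of a gene in a cell, 109 (12.3%) came from 1 allele alone, against 21.7% for autosomal genes. Blm had only Cast counts in 9 such cells and only Mus counts in 2, E2f8 in 7 and 3 and Exo1 in 8 and 1, and Fen1 had only Mus counts in 8 and only Cast counts in 0.

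**Figure D4:**
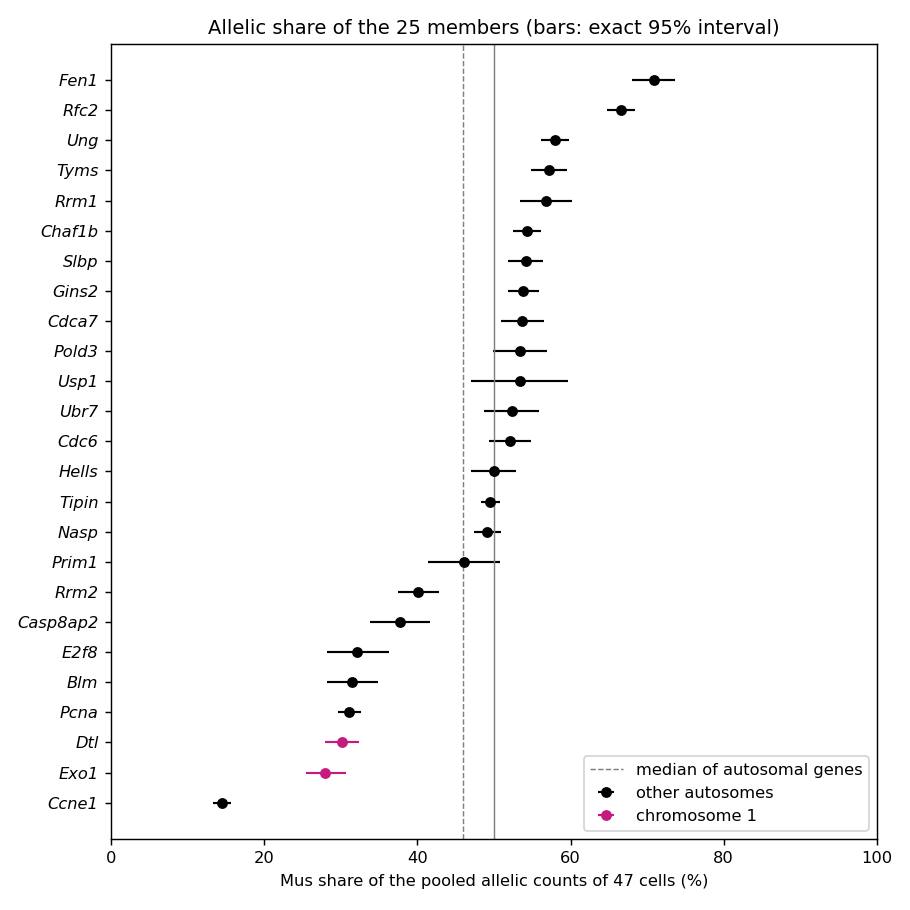
Mus share of the pooled allelic counts of 47 cells for each of the 25 genes, in percent, with exact 95% binomial intervals that cover counting error. Ccne1 stands lowest at 14.4%, the 2 genes of chromosome 1 (coloured) lie at 27.98 and 30.2%, and Fen1 is highest at 70.9%. The solid line marks 50% and the dashed line the median of autosomal genes, 45.97%.

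The comparison of classes asks whether cells that had lost an X chromosome differed in these genes, none of which is X-linked. Among X-Mus X-Cast cells the summed level was 37.3 to 75.7 (median 54.9). It was 43.9 to 97.6 (median 54.5) in the X-Cast O-Mus class and 37.8 to 111 (median 65.6) in the X-Mus O-Cast class. The ranges overlap, and the top of the X-Mus X-Cast range was passed by 3 of 15 cells that had lost the Mus X and by 3 of 9 that had lost the Cast X. The mean was 1.12-fold higher in X-Cast O-Mus (61.8 against 55.3) and 1.22-fold higher in X-Mus O-Cast (67.2), and the latter was 1.12-fold without its highest cell. The classes were not spread evenly over the plate. Of the 9 X-Mus O-Cast cells 4 were in plate column 1, where they ran from 65.6 to 111 beside 58.3 to 60.5 for 2 X-Mus X-Cast cells. In column 2 the order was turned, with 37.8 and 45.7 in 2 X-Mus O-Cast cells and 49.2 to 62.7 in 3 X-Mus X-Cast cells. Class and plate column can be told apart only in part with so few cells in each. The library measures moved with class too: X-Mus O-Cast cells had a mean of 4673 genes detected and 18% of counts from mitochondrial genes, X-Cast O-Mus cells 4768 and 21.4%, and X-Mus X-Cast cells 5071 and 21.8%, and their part in the class values was not tested.

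**Figure D5:**
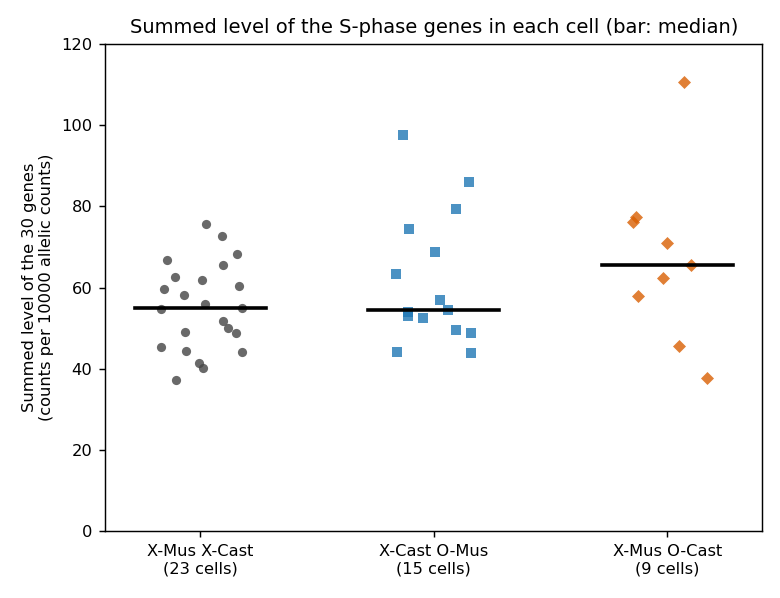
Summed level of the 30 S-phase genes in each cell by class, in counts per 10000 allelic counts, with the median as a bar. The X-Mus X-Cast cells sit between 37.3 and 75.7, and 3 cells of each other class lie above them, up to 97.6 and 111.

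Few single genes were past 1.5-fold between classes, and no test was made. In X-Cast O-Mus cells, set against the X-Mus X-Cast class, 3 of 25 genes had means at least 1.5-fold higher and 1 at least 1.5-fold lower, where 14.4% and 13.7% of all genes did. Ubr7 was 1.70-fold higher (means of 1.33 and 0.782), E2f8 1.61-fold and Ccne1 1.52-fold. With each gene taken without its highest cell in both classes, Ubr7 was 1.77-fold and E2f8 1.98-fold higher, while Ccne1, whose highest cell was D06, was at 1.35-fold. Usp1, Exo1 and Hells had the lowest ratios, at 0.664, 0.690 and 0.824, and without the highest cells Usp1 was at 0.631 and Exo1 at 0.600. This left 2 genes higher and 2 lower, against 12.7% and 18.5% of all genes taken in the same way. In X-Mus O-Cast cells, set against the same class, 2 of 25 were at least 1.5-fold higher and 0 lower, against 17.3% and 18% of all genes. Ccne1 was 1.79-fold higher (6.56 against 3.66) and Rfc2 1.71-fold, followed by E2f8 at 1.46-fold. Without the highest cell in both classes the ratio was 1.68 for Ccne1, 1.55 for Rfc2 and 1.31 for E2f8. Pold3, Rrm1 and Prim1 had the lowest ratios, at 0.758, 0.841 and 0.843, and without the highest cells Blm was at 0.610 in place of 0.941, which made 2 genes higher and 1 lower, against 12.1% and 28.9% of all genes. The shares past 1.5-fold were thus no greater among the S-phase genes than among all genes.

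Ccne1 ran from 0.929 to 7.06 (median 3.83) where both X chromosomes were kept, from 1.48 to 17.4 (median 4.24) in X-Cast O-Mus and from 1.26 to 11.9 (median 6.69) in X-Mus O-Cast cells. The ranges of the 3 classes overlap. Pcna ran from 2.04 to 6.93 (median 3.78), from 2.08 to 10.3 (median 5.55) and from 2.95 to 8.33 (median 5.30) in the same order, again with overlap. In either comparison 17 of the 25 genes had a mean above that of X-Mus X-Cast cells, and 51.1% and 51.2% of all genes did. Both comparisons share the X-Mus X-Cast cells. The median log2 ratio of the 25 genes was 0.11 for X-Cast O-Mus and 0.22 for X-Mus O-Cast, where all genes had 0.011 and 0.017.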

How the data were processed

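Allelic counts of 47 single iPSCs were used as the authors deposited them, 1 column per allele and cell, with the class of the cell in the column name. The study's methods give, for its plate-based libraries, alignment with STAR (2.5.3a in the submitters' processing notes) to an N-masked mm10 genome, assignment of reads to the Mus or Cast allele with SNPsplit, and counts at SNP positions annotated to genes with at least 4 SNPs. Cells were sorted to wells, so no doublet caller was run, and no cell was left out. Total allelic counts of 71682 to 216451 per cell limit the precision of genes with few counts.

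Counts of each cell were divided by its total and multiplied by 10000. The study's methods follow this scaling with a log transform, which was not applied here: levels, ratios and CVs are on the linear scale. Genes were compared when their mean reached 5 counts per cell and 24 cells had a count (24 cells per allele for correlations of alleles). Correlations are Spearman's and the background is the same measure over all genes. Cells of 1 plate are not replicates, so no p-value or standard error was computed. Shares carry exact Clopper-Pearson intervals. Symbols were placed with GENCODE M21 (GRCm38). Work was done in Python 3.11.15 with pandas 2.3.3, numpy 2.4.6, matplotlib 3.10.9 and scipy 1.17.1, and the procedure was tested on simulated data. All 25 genes that pass the filter are named, with the 3 highest and 3 lowest class ratios, the 10 closest other genes, and the 5 closest (1 of which is not reported here) and 3 least close of the other replication genes. The gene lists were chosen with earlier results of these data known. Alternatives were other scalings, thinned counts, subsets of cells, other filters and thresholds, and Pearson correlation.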

Additional observations from a re-analysis of the deposited data

Results flagged for a closer look

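In the 9 X-Mus O-Cast cells, 26 sets of values were searched for a cell far from the others, the levels of the 25 genes and their sum, and 3 held one by Dixon's ratio, where chance gives about 1 in 20 for values with a normal spread. Levels of single cells are skewed and hold zeros, and their chance rate was not computed. The level of Blm was 4.06 per 10000 in 1 cell and at most 0.977 in the other 8. E2f8 was at 3.12 in 1 cell and at most 1.26 in the others. Hells was at 2.93 in 1 cell and at most 1.77 in the others. These were 3 different cells.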

How the results depend on the processing

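Of 112 values recomputed under alternatives, 95 kept their direction and moved by less than 0.1 (correlations of sums), 1.5 times (counts and ratios) or 1 SD over pairs, genes or cells (medians, shares and class ratios of the sum), or stayed past 1.5-fold (class ratios of single genes). That SD is wider than the median correlation of pairs itself, so for it little but a change of sign could have counted as a change. For the class ratios of the sum the SD was 19.3% of the X-Mus X-Cast mean, so a move from 1.22 to 1.12 was counted as kept. Plate columns, leaving out Ccne1 or the highest cells, and X-Cast O-Mus cells alone were added after seeing the data. The class ratio of the summed level for X-Cast O-Mus turned from 1.12 to 0.992 with medians over cells. With a threshold of 0.5, 1 gene followed the others, against 0.0524% of genes outside the list. With fewer cells the background grew, to 8.10% in X-Mus X-Cast cells, where 11 genes followed, and 12.1% in X-Cast O-Mus cells, where 12 did and the allele sums correlated at 0.521. On deviations from the plate column median, 5 genes followed. Blm joined Ccne1 below a Mus share of 25% in X-Mus X-Cast cells, making 2. Genes past 1.5-fold in either direction numbered 4 of 25 for X-Cast O-Mus (28.1% of all genes) and 2 of 25 for X-Mus O-Cast (35.3%). For X-Cast O-Mus they were 2 of 22 with thinned counts (22.1%), 8 of 25 with medians (39.1%), 7 of 29 with a filter of 1 count (45.8%) and 0 at 2-fold (10.3%). For X-Mus O-Cast they were 7 of 25 with medians (43.04%), 5 of 29 with that filter (51.4%), 0 at 2-fold (16.04%) and 1 of 24 without Ccne1. The share of all genes was the greater in each of these. The cause was not tested. The median correlation of pairs ran from 0.031 (on plate column deviations) to 0.070 around its value of 0.067, the correlation with G2 and mitosis genes from -0.435 to -0.339 and the median correlation of alleles from 0.215 to 0.273. Depth limits the genes with the fewest counts most, Usp1, Prim1 and E2f8. No paired analysis was possible because the labels give 1 group.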
